A study of Mus musculus with 12 samples.

Results

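Elastic fibres and the microfibrils that carry them were followed through 10 genes: elastin (Eln), the fibrillins Fbn1 and Fbn2, the fibulins Fbln1, Fbln2 and Fbln5, Emilin1, and the microfibril-associated genes Mfap2, Mfap4 and Mfap5. They were chosen by name, with earlier results of these data known, and all 10 were found among the 21556 genes of the count table. RNA was sequenced from primary fibroblasts of mouse abdominal skin in 12 libraries, 3 in each of 4 groups. The WT cells came from C57BL/6 mice and the Nox4 KO cells from B6.129-Nox4tm1Kkr/J mice, which carry a targeted allele of Nox4, an NADPH oxidase. By the paper, both lines descend from heterozygous matings, whose WT and KO littermates were then mated to give litters of a single genotype. All cultures were starved before stimulation, and the stimulated groups of both genotypes then received TGF-β2 at 10 ng/ml for 24 h while the control groups received none. The WT and KO strains differ in more than their Nox4 allele where 129 sequence remains around it, so that this sequence and the allele cannot be told apart here. The age and sex of the mice are not given in the sources used here. Neither is it stated how many animals stand behind the 3 libraries of a group, so that p-values measure the spread between these libraries. The comparisons asked how these genes responded to TGF-β2, and whether levels or responses differed without Nox4.

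An elastic fibre has a core of cross-linked elastin laid down on a scaffold of microfibrils. Fibrillins are the long proteins that polymerise into microfibrils, fibulins and emilins link microfibrils with elastin and the cell surface, and the small MAGP and MFAP proteins decorate them. Microfibrils also hold TGF-β in its latent form, bound through latent TGF-β binding proteins, and in skin the fibroblast is the main source of the whole structure.

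The genes lie on 8 mouse chromosomes, and no 2 of them share exons. Promoter windows from RefSeq on GRCm38.p6, covering 250 bases before and 50 bases after a start, were at hand for 6 members, namely Fbn1, Fbln1, Fbln2, Fbln5, Emilin1 and Mfap2, in 9 windows. The stretches before the start of Mfap2 and Fbln5 are shown because both genes passed the test for lower counts after TGF-β2 in WT cells. They run 5′ to 3′ on the strand of the gene, end before the first annotated exon, and carry in capitals each match to a searched motif. Mfap2 is shown for chr4:141010174-141010417 on the plus strand and Fbln5 for chr12:101819120-101819369 on the minus strand.
Mfap2: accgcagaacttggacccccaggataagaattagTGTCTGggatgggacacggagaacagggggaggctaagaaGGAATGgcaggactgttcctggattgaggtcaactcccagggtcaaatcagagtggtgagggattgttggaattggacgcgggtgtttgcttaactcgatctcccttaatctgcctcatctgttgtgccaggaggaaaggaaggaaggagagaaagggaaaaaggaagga
Fbln5: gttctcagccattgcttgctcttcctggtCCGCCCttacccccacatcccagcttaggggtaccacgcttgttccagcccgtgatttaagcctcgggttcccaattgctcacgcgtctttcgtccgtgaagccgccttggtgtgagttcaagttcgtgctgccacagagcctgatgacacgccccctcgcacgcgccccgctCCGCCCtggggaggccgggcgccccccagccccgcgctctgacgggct
In Mfap2 the capitals mark TGTCTG, which is the CAGA box core CAGACA read on the other strand, and GGAATG, the TEAD site CATTCC on the other strand. In Fbln5 they mark the GC box GGGCGG, both times on the other strand. Motifs were searched on both strands of the whole window, and the searched letters do not overlap in the stretches shown. A GC box was present in 5 of the 6 members and in 5 of their 9 windows, against 35.7% of all 32851 windows. The CAGA core was present in 4 of the 6 members and in 5 of the 9 windows, against 21.0% of all windows, and the TEAD site in 1 member, against 14.7%. The Fbln1 windows, starting at 85205699 and 85205758, overlap, and their CAGA matches are the same site, counted in each window. No member window held the TATA box TATAAA, the palindromic SMAD site GTCTAGAC or the AP-1 site TGAGTCA, which stood in 13.6%, 0.213% and 5.20% of all windows. A match of letters describes the window and is not a binding site.

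Library totals were 35118344 to 43796260 counts, and the 10 genes took 0.611 to 0.851% of them. Nox4 was between 1.31 and 2.42 RPKM in WT control and between 0.636 and 1.40 RPKM in Nox4 KO control libraries, where RPKM is counts scaled by library total and by merged exon length. The Nox4 count sums all of its exons, and the removed exons are not given in the sources used here, so this level does not check the allele. Ccn2, which TGF-β induces in fibroblasts, rose by 1.57 in WT and by 1.59 in Nox4 KO on the log2 scale (edgeR adjusted p of 0.0042 and 0.00923). All 7 fibroblast markers were above 1 RPKM, while 0 of 5 keratinocyte, 0 of 5 adipocyte and 0 of 5 Schwann cell and melanocyte markers were, with Retn and Tyr at 0 in all libraries. Of the 7 macrophage markers 5 exceeded 1 RPKM in at least 1 group, and their summed level, which moved with the replicate numbers, is given beside the results it moved with. The fibroblast sum was 28468 to 31958 CPM in WT control and 20952 to 27318 CPM after TGF-β2, and Pdgfra among them had a log2 fold change of -3.35 in WT and -2.98 in Nox4 KO (edgeR adjusted p of 0.000597 and 0.00128). Of 5 chondrocyte markers 2 exceeded 1 RPKM, with sums of 35.4 to 37.0 CPM in WT control, 17.5 to 24.0 after TGF-β2, 24.2 to 49.2 in Nox4 KO control and 20.7 to 23.8 after TGF-β2. Of 5 endothelial markers 1 did, with sums of 13.8 to 23.2, 9.64 to 13.5, 17.2 to 31.2 and 14.0 to 16.8 CPM in the same order of groups. The part of these shifts in the responses of the members was not tested. Of the 7 smooth muscle and pericyte markers 4 exceeded 1 RPKM, with summed levels of 436 to 589 CPM in WT control, 407 to 485 in stimulated WT, 509 to 553 in Nox4 KO control and 403 to 683 in stimulated Nox4 KO. This sum joins opposite shifts. With TGF-β2 the mean of Myh11 went from 40.9 to 18.2 RPKM in WT and from 42.2 to 25.2 in Nox4 KO. Notch3 went from 4.42 to 1.04 and from 3.23 to 1.12, while Mcam went from 67.4 to 99.4 and from 65.5 to 101. Their part in the responses of the members was likewise not tested. In bulk RNA, fewer cells of a kind and less RNA per cell cannot be told apart.

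In WT control cells the levels per length fell into tiers. Fbln2 was the most abundant at 1009 ± 44.6 RPKM (SD, n = 3, as in all means below). Mfap5 at 189 ± 20.7 RPKM and Fbn1 at 159 ± 12.3 RPKM followed, and their ranges overlapped. Emilin1 at 66.6 ± 13.2 and Fbln5 at 58.4 ± 3.45 RPKM formed the next tier, again with overlapping ranges. Mfap4 at 20.8 ± 7.59, Mfap2 at 19.9 ± 1.45, Eln at 15.5 ± 7.91 and Fbln1 at 14.0 ± 3.69 RPKM overlapped each with its neighbour. Fbn2, the fibrillin best known from development, was lowest at 1.58 ± 0.340 RPKM. The order depends on the gene length used: with merged exons of all transcripts in place of protein-coding ones, Mfap5 was at 84.5 and Eln at 7.36 RPKM.

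In WT fibroblasts TGF-β2 raised Eln 4.62-fold and Mfap4 2.42-fold and lowered Fbn2 8.80-fold, Mfap2 2.49-fold and Fbln5 1.73-fold. The other 5 members, among them the abundant Fbln2, Mfap5 and Fbn1, did not pass the test. In Nox4 KO fibroblasts Eln rose 5.69-fold, Mfap4 2.17-fold and Fbn1 1.26-fold, and Fbln5 fell 1.72-fold. Among the 10 members, WT cells gave 2 higher and 3 lower genes at an edgeR adjusted p under 0.05, where 10.4% of all 10743 genes tested were higher and 12.2% lower. With a change of at least 2-fold added, 2 were higher and 2 lower, against 2.62% and 5.09% of all genes. In Nox4 KO 3 members were higher and 1 lower, where 15.1% and 14.9% of all 10809 genes were, and with at least 2-fold 2 were higher and 0 lower, against 2.22% and 4.58%. The count of lower members in Nox4 KO rested on how the libraries were compared: same-numbered control and stimulated Nox4 KO libraries deviated together, and with the replicate number as a block 3 members were higher and 4 lower, where 25.2% and 28.8% of all genes were. The 3 added were Fbn2, Mfap2 and Fbln1. The median log2 fold change of the members was -0.26 in WT and -0.02 in Nox4 KO, beside -0.00 and -0.01 over all genes tested.

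**Figure D1:**
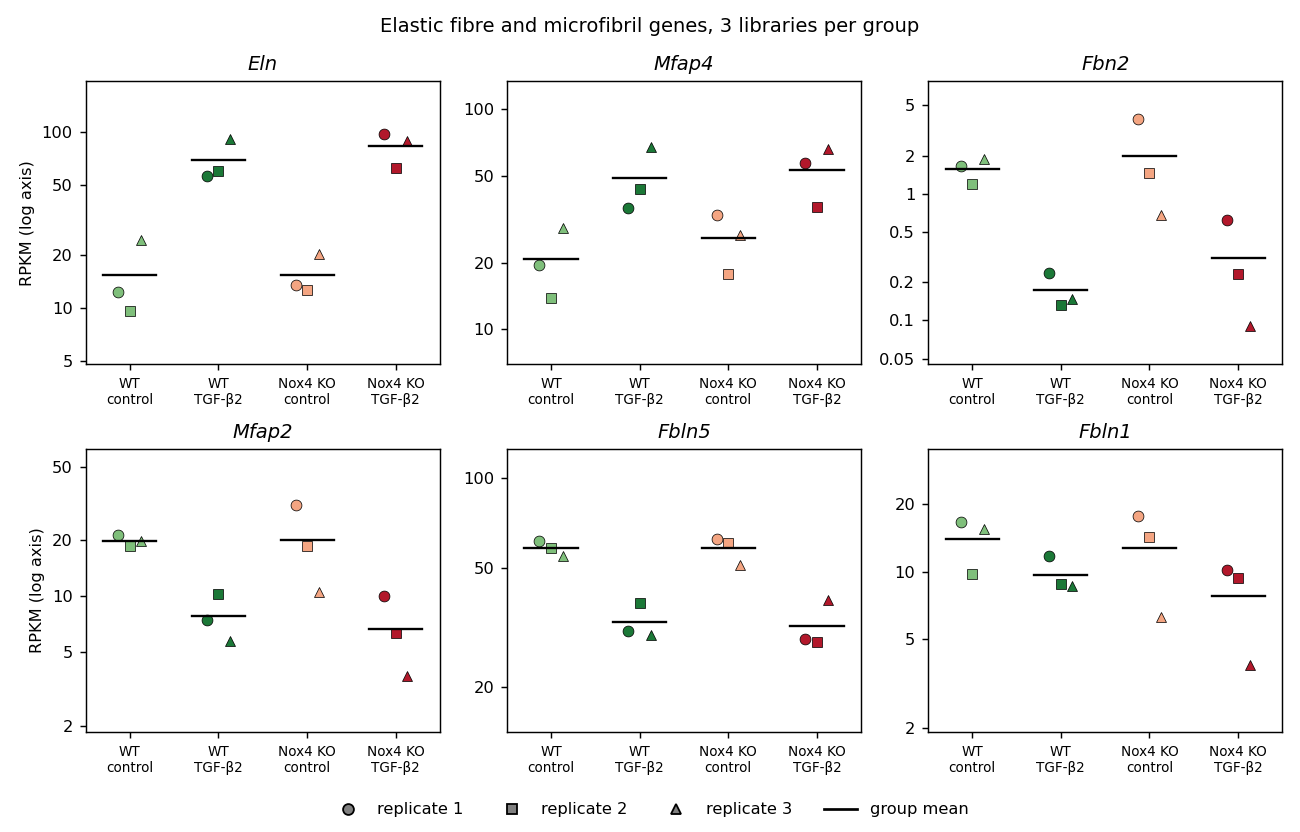
Level of 6 members in RPKM (log axis) in each of the 12 libraries, by group, with circles, squares and triangles for replicates 1, 2 and 3 and a black line at the group mean. Eln and Mfap4 lie higher in stimulated than in control libraries of the same genotype, Fbn2, Mfap2 and Fbln5 lie lower, and in Nox4 KO replicate 1 is highest and replicate 3 lowest for Fbn2, Mfap2 and Fbln1 both before and after TGF-β2.

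Elastin, the protein that gives skin its recoil, showed the largest rise of the 10 members. Eln (ENSMUSG00000029675) lies on chromosome 5, from 134702593 to 134747323 on the minus strand of GRCm38. It was at 12.4, 9.59 and 24.5 RPKM in the WT control libraries and at 55.8, 59.9 and 91.3 RPKM after TGF-β2. In Nox4 KO it was at 13.5, 12.6 and 20.3 RPKM in control and at 97.0, 62.2 and 88.9 RPKM after TGF-β2. The stimulated libraries all lay above the control libraries in both genotypes. The log2 fold change was 2.21 (SE 0.37, edgeR adjusted p = 0.0077) in WT and 2.51 (SE 0.24, adjusted p = 0.00283) in Nox4 KO. Between control libraries of WT, the highest Eln level was 2.55 times the lowest, a ratio that 2.01% of 10597 genes reached. Replicate 3 was the highest and replicate 2 the lowest there, as they were for the summed macrophage markers, which ranged from 42.9 to 184 CPM over the WT control libraries. In Nox4 KO control Eln was again highest in replicate 3, where the macrophage sum was lowest at 32.1 CPM against 57.3 and 141 CPM in the others. The part of these markers in the Eln levels was not tested.

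The fibrillins differed from each other in level and in response. Fbn1 (chromosome 2, 125300594 to 125507993, minus strand) encodes the main fibrillin of adult microfibrils. It was at 158, 147 and 171 RPKM in WT control and at 150, 82.7 and 163 RPKM after TGF-β2, so the groups overlapped and replicate 2 of the stimulated group stood apart. In Nox4 KO Fbn1 was at 122, 138 and 136 RPKM in control and at 173, 153 and 146 RPKM after TGF-β2, without overlap. Its log2 fold change was -0.22 (SE 0.25, edgeR adjusted p = 0.562) in WT and 0.34 (SE 0.09, adjusted p = 0.0413) in Nox4 KO. The Nox4 KO call was lost with upper-quartile or library-size scaling, with all 12 libraries in the fit, and without any of 5 of the 6 libraries, at edgeR adjusted p up to 0.225; without the stimulated replicate 3 it was kept at 0.0334. Exons of Fbn1 share 2442 bases with Gm9913, and use of the strand in counting is not given in the sources used here.

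The low Fbn1 value of the stimulated WT replicate 2 went along with transcript length in that library. Fbn1 has 12004 bases of merged exon, the longest of the 10 members. Over all 333 genes of 10 kb or more, that library lay below the mean of the other 2 of its group by a median of -0.73 on the log2 scale, and over the 2312 genes under 2 kb it lay above by 0.45. In the 9 libraries of the other groups the same medians ran from -0.14 to 0.15 and from -0.04 to 0.07. Without that library the log2 fold change of Fbn1 in WT was 0.03 (edgeR adjusted p = 0.790), of the opposite sign. Fbn2, at 11041 bases, changed by -2.96 on the log2 scale without it (adjusted p = 0.00356), and Mfap2, at 1138 bases, by -1.54 (adjusted p = 0.00335). Fragment sizes and RNA quality of the libraries were not part of the data, and their part in the Fbn1 value was not tested.

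**Figure D2:**
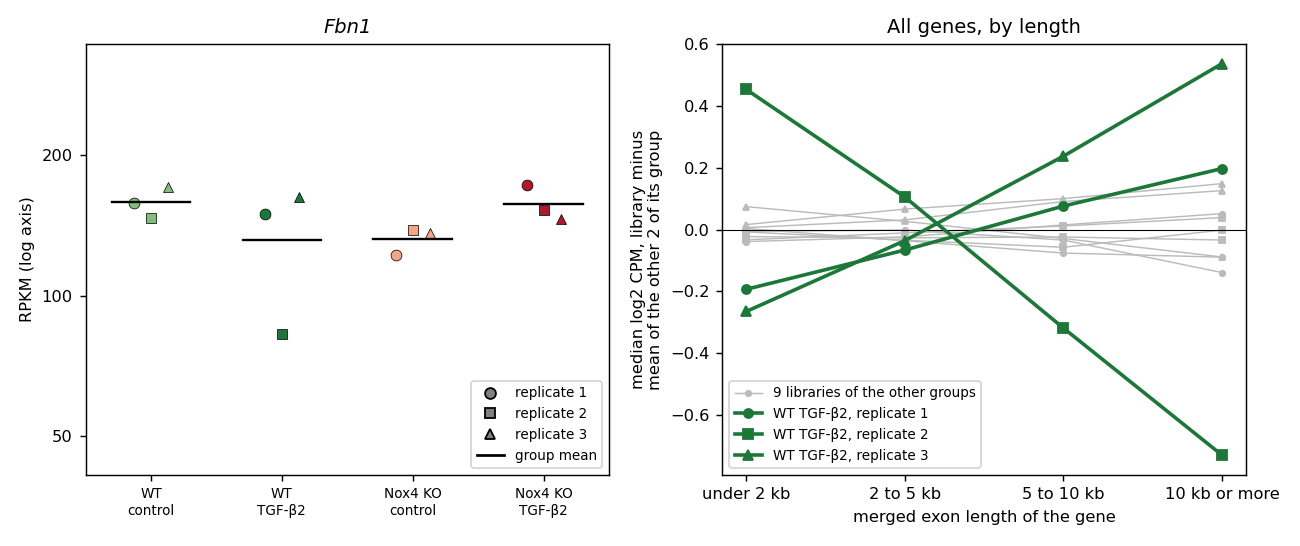
Left, Fbn1 in RPKM (log axis) in the 12 libraries by group, with a line at the group mean. Right, the median difference in log2 CPM between a library and the mean of the other 2 of its group, over genes binned by merged exon length; the stimulated WT replicate 2 runs from 0.45 for the shortest genes to -0.73 for the longest, replicates 1 and 3 of that group are measured partly against it and slope the other way, and the 9 libraries of the other groups (grey) stay between -0.14 and 0.15 in the longest bin.

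Fbn2 (chromosome 18, 58008623 to 58210487, minus strand) showed the largest change of the members in WT cells. It was at 1.66, 1.20 and 1.87 RPKM in WT control and at 0.238, 0.132 and 0.148 RPKM after TGF-β2, on counts of 506 to 831 and of 55 to 107. The groups did not overlap, and the log2 fold change was -3.14 (SE 0.29, edgeR adjusted p = 0.00114). In Nox4 KO Fbn2 was at 3.89, 1.45 and 0.678 RPKM in control and at 0.619, 0.232 and 0.0902 RPKM after TGF-β2. The control libraries spanned a 5.73-fold range, which 0.346% of 10684 genes reached, and the log2 fold change of -2.60 (SE 0.89) did not pass the test at an edgeR adjusted p of 0.0715. Within each replicate number Fbn2 was 6.28, 6.27 and 7.51 times lower after TGF-β2, and with the block it passed at -2.62 (SE 0.09, adjusted p = 0.000124). DESeq2 and the fit on all 12 libraries also passed it, at adjusted p of 0.0297 and 0.0216.

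The fold changes of the fibulins were smaller than those of Fbn2. Fbln5 (chromosome 12, 101746565 to 101819055, minus strand), which brings elastin to the microfibril, was at 61.9, 58.3 and 55.0 RPKM in WT control and at 30.8, 38.3 and 29.9 RPKM after TGF-β2. In Nox4 KO it was at 62.8, 60.7 and 51.2 RPKM in control and at 28.9, 28.1 and 39.0 RPKM after TGF-β2. The groups did not overlap in either genotype. Fbln5 fell by 0.79 on the log2 scale in WT (SE 0.12, edgeR adjusted p = 0.00612) and by 0.78 in Nox4 KO (SE 0.15, adjusted p = 0.0153), the opposite direction to Eln. The Nox4 KO call was lost without replicate 1 or 2 of either group (edgeR adjusted p of 0.0513 to 0.0652).

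Fbln2 (chromosome 6, 91212455 to 91272540, plus strand), a binding partner of fibrillin and elastin, was at 960, 1048 and 1017 RPKM in WT control and at 818, 760 and 812 RPKM after TGF-β2. These groups did not overlap, but the log2 fold change of -0.30 (SE 0.11) missed the threshold at an edgeR adjusted p of 0.0853, while DESeq2 gave an adjusted p of 0.00742. In Nox4 KO its log2 fold change was -0.05 (SE 0.12, edgeR adjusted p = 0.777) and the groups overlapped. Fbln1 (chromosome 15, 85205949 to 85286535, plus strand), also found in basement membranes, was at 16.6, 9.78 and 15.5 RPKM in WT control and at 11.7, 8.83 and 8.60 RPKM after TGF-β2, with overlap and a log2 fold change of -0.48 (SE 0.23, adjusted p = 0.172). In Nox4 KO Fbln1 was at 17.7, 14.3 and 6.23 RPKM in control and at 10.1, 9.32 and 3.83 RPKM after TGF-β2. Its Nox4 KO log2 fold change was -0.63 (SE 0.50, edgeR adjusted p = 0.368) without the block and -0.62 (SE 0.06, adjusted p = 0.000896) with it. The stimulated level was 0.574, 0.654 and 0.614 of the control level of the same replicate number.

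The 3 Mfap members went in different directions, and they are not a protein family despite the shared symbol. Mfap4 (chromosome 11, 61485431 to 61488900, plus strand), a fibrinogen-related protein that binds elastin, was at 19.6, 13.9 and 28.9 RPKM in WT control and at 35.5, 43.6 and 67.2 RPKM after TGF-β2. In Nox4 KO it was at 33.0, 17.8 and 27.0 RPKM in control and at 56.8, 36.1 and 66.0 RPKM after TGF-β2. Stimulated libraries were above control libraries in both genotypes. Mfap4 rose by 1.27 on the log2 scale in WT (SE 0.32, edgeR adjusted p = 0.0298) and by 1.12 in Nox4 KO (SE 0.29, adjusted p = 0.0334). The WT call was lost without control replicate 1 or 2 or stimulated replicate 3 (edgeR adjusted p of 0.103, 0.0798 and 0.0528). The Nox4 KO call was lost without control replicate 2 or 3 or stimulated replicate 1 or 3 (adjusted p of 0.0672 to 0.0887), and with the block it was kept at an adjusted p of 0.000947. Exons of Mfap4 share 89 bases with Mapk7.

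Mfap2 (chromosome 4, 141010418 to 141015984, plus strand), one of the MAGP proteins that bind fibrillin, went the other way. It was at 21.5, 18.6 and 19.8 RPKM in WT control and at 7.40, 10.3 and 5.76 RPKM after TGF-β2, a fall of 1.31 on the log2 scale (SE 0.21, edgeR adjusted p = 0.0067). In Nox4 KO Mfap2 was at 31.2, 18.7 and 10.6 RPKM in control and at 10.0, 6.30 and 3.69 RPKM after TGF-β2. The groups did not overlap in either genotype. The Nox4 KO log2 fold change of -1.51 (SE 0.51) missed the threshold at an edgeR adjusted p of 0.0674, and with the block it was -1.49 (SE 0.07, adjusted p = 0.00021). It passed under DESeq2 (adjusted p = 0.00742), with all 12 libraries in the fit (0.0224) and without control replicate 3 (0.0425). Within the replicate numbers Mfap2 was 3.11, 2.96 and 2.86 times lower after TGF-β2.

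Mfap5 and Emilin1 did not pass the test in either genotype. Mfap5 (chromosome 6, 122505845 to 122529290, plus strand), the other MAGP, was at 167 to 208 RPKM in WT control and 179 to 239 RPKM after TGF-β2, and at 130 to 186 and 99.4 to 177 RPKM in the Nox4 KO groups. Its log2 fold change was 0.18 (95% interval -0.15 to 0.51, edgeR adjusted p = 0.376) in WT and 0.01 (-0.62 to 0.64, adjusted p = 0.984) in Nox4 KO. Emilin1 (chromosome 5, 30913402 to 30921277, plus strand), a glycoprotein at the interface of elastin and microfibril, stayed between 57.2 and 81.7 RPKM in all 12 libraries. Its log2 fold change was 0.11 (-0.25 to 0.47, edgeR adjusted p = 0.617) in WT and 0.16 (-0.09 to 0.40, adjusted p = 0.274) in Nox4 KO.

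**Figure D3:**
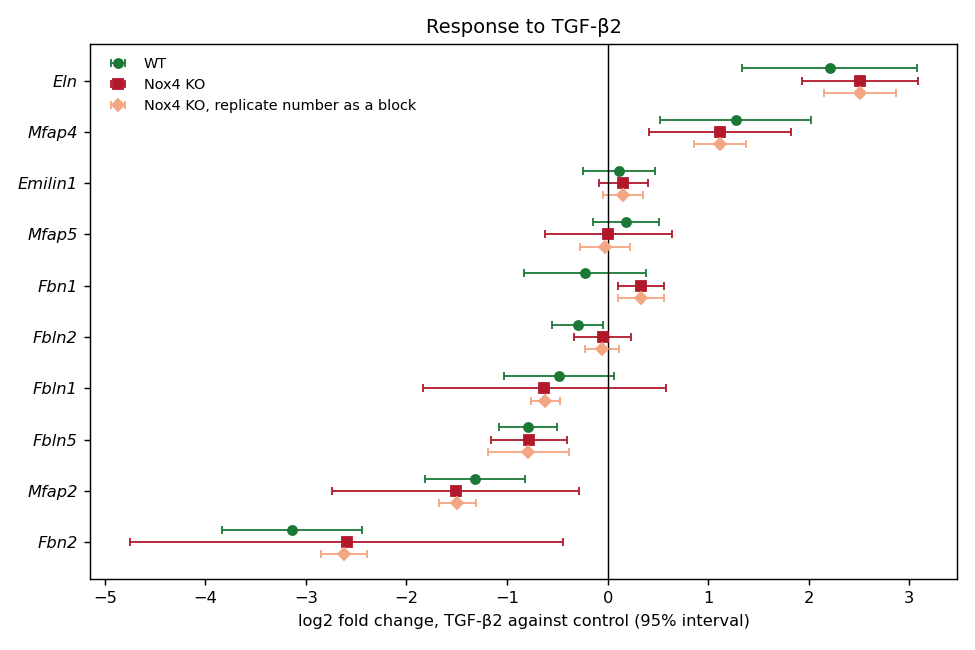
Log2 fold change of the 10 members, TGF-β2 against control, with 95% intervals from edgeR, in WT (circles), in Nox4 KO (squares) and in Nox4 KO with the replicate number as a block (diamonds). Eln and Mfap4 lie right of zero and Fbn2, Mfap2 and Fbln5 left of it in both genotypes, and the Nox4 KO intervals of Fbn2, Mfap2 and Fbln1 are narrow with the block and wide without it.

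The spread between Nox4 KO libraries was itself uneven over the members. In the Nox4 KO control group the highest library was 5.73 times the lowest for Fbn2, 2.96 times for Mfap2 and 2.84 times for Fbln1, where the median over all genes was 1.18 times. A ratio at least as high was seen for 1.72% of genes in the case of Mfap2 and for 1.85% in that of Fbln1. After TGF-β2 the ratios were 6.86 for Fbn2, 2.72 for Mfap2 and 2.65 for Fbln1. Replicate 1 was highest and replicate 3 lowest for these 3 genes in both Nox4 KO groups. The summed macrophage markers had the same order, from 32.1 CPM in replicate 3 to 141 CPM in replicate 1 of Nox4 KO control and from 21.7 to 102 CPM after TGF-β2. So did the summed fibroblast markers, from 26144 to 36097 CPM in Nox4 KO control and from 22666 to 29246 CPM after TGF-β2, and in control the chondrocyte markers, from 24.2 to 49.2 CPM. The endothelial and the smooth muscle and pericyte sums had the reverse order in both Nox4 KO groups. In replicates 1 to 3 of the control group they were at 17.2, 19.4 and 31.2 CPM and at 509, 514 and 553 CPM. Stimulated replicates gave 14.0, 14.4 and 16.8 CPM and 403, 406 and 683 CPM. Of the fibroblast markers, Pdgfra and Pdgfrb peaked in replicate 2 of Nox4 KO control, and Col1a1, Col1a2, Col3a1, Thy1 and Lum in replicate 1. In WT the orders were mixed. Mfap2 was at 7.40, 10.3 and 5.76 RPKM in stimulated WT replicates 1 to 3, and the macrophage sum at 52.3, 32.3 and 126 CPM. Replicate 2 there was the library with short genes high, by a median of 0.45 under 2 kb, and Mfap2 has 1138 bases. Fbn2 in stimulated WT, at 0.238, 0.132 and 0.148 RPKM, had the order of the fibroblast sum, at 27318, 20952 and 21636 CPM. In WT control Fbn2 had the order of the macrophage sum, and Mfap2 and Fbln1 that of the fibroblast sum. The part of these markers in the levels was not tested. Fbln2 and Emilin1 ranged at most 1.31-fold within either Nox4 KO group.

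No member differed between Nox4 KO and WT control cells at an edgeR adjusted p under 0.05, where 0% of 10767 genes did. The paper, also with edgeR, reports genes that differed between the genotypes in control and after TGF-β2, whereas no gene passed in the edgeR fits used here. The absence of a call therefore does not show equal levels. By DESeq2 0 members passed as well. Fbn1 was the 1 member with an unadjusted p under 0.05 (5.54% of all genes) and the 1 member whose groups did not overlap (13.6% of all genes). It was lower in Nox4 KO by a log2 fold change of -0.30 (SE 0.09, 95% interval -0.52 to -0.08, edgeR adjusted p = 0.828). For Eln the interval of the difference ran from -0.88 to 0.82, for Mfap2 from -0.90 to 0.87 and for Fbn2 from -1.12 to 1.75, so that differences of this size were not detectable. The intervals were narrowest for Fbn1, for Fbln2 (-0.23 to 0.27) and for Fbln5 (-0.31 to 0.23).

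After TGF-β2, 9 members were tested between the genotypes, since Fbn2 was under 1 RPKM in both groups. By edgeR 0 of the 9 passed, where 0% of 10439 genes did, 0 had an unadjusted p under 0.05 (3.23% of all genes), and by DESeq2 0 passed. The groups did not overlap for 2 members, against 10.1% of all genes: Fbln2 was at 833 to 1088 RPKM in Nox4 KO and 760 to 818 RPKM in WT, and Mfap5 was at 99.4 to 177 and 179 to 239 RPKM. Their log2 fold changes were 0.29 (95% interval -0.02 to 0.59) and -0.45 (-1.01 to 0.12), with an edgeR adjusted p of 0.838 for both. Eln differed by 0.28 (-0.30 to 0.86) and Mfap4 by 0.14 (-0.57 to 0.85). For Fbn2 a two-sided exact permutation test of log2(CPM + 0.5) gave p = 0.7, in a design of 3 against 3 that allows no p under 0.1.

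**Figure D4:**
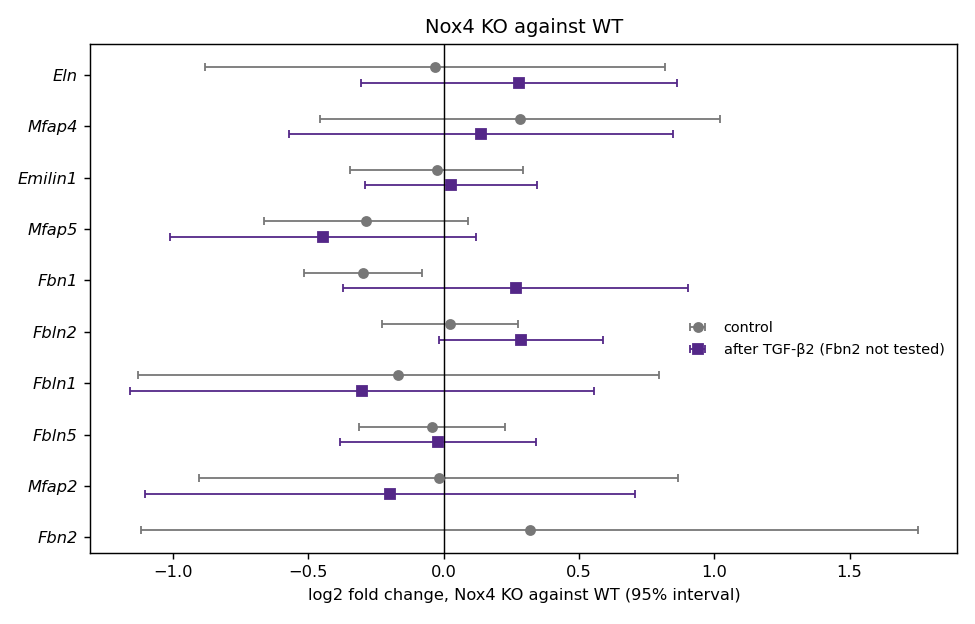
Log2 fold change of the members, Nox4 KO against WT, with 95% intervals from edgeR, in control libraries (circles) and after TGF-β2 (squares; Fbn2 was under the filter there). The intervals cross zero for every member except Fbn1 in control, which did not pass after adjustment over all genes.

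The responses of the 2 genotypes were compared through the interaction over all 12 libraries. By edgeR 0 of 10 members passed, where 0% of 10890 genes did, 0 had an unadjusted p under 0.05 (2.68% of all genes), and DESeq2 passed 0. The difference between the responses, Nox4 KO minus WT, was 0.31 for Eln (95% interval -0.72 to 1.35), -0.14 for Mfap4 (-1.17 to 0.89), 0.02 for Fbln5 (-0.42 to 0.46), -0.18 for Mfap2 (-1.44 to 1.08) and 0.55 for Fbn2 (-1.59 to 2.70) on the log2 scale. Fbn1 had the smallest unadjusted p of the members, with a difference of 0.57 (-0.11 to 1.24, edgeR adjusted p = 0.854), and without the stimulated WT replicate 2 this was 0.30. Members such as Fbn1 that passed in 1 genotype alone were therefore not shown to respond differently.

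The members are assembled, cross-linked and degraded by products of other genes, of which 50 were listed and 42 could be tested in WT and 41 in Nox4 KO. The list was chosen with earlier results of these data known, so its counts stand beside the shares of all genes as description only. After TGF-β2, 13 were higher and 5 lower in WT, and 14 were higher and 4 lower in Nox4 KO by edgeR at an adjusted p under 0.05. Over all genes tested 10.4% were higher and 12.2% lower in WT, and 15.1% and 14.9% in Nox4 KO, so the counts of lower listed genes were near or under the share of all genes. With the replicate block the Nox4 KO counts were 17 higher and 12 lower, where 25.2% and 28.8% of all genes were, so the lower count was again near that share. The block added Adamtsl2, Itgb3 and Fn1 to the higher genes and Efemp1, Efemp2, Fbln7, Adamtsl3, Adamtsl5, Ltbp3, Ctsk and Neu1 to the lower ones. In WT the count of higher genes was 8 without control replicate 2 and 7 without stimulated replicate 1, and the count of lower genes was 3 without control replicate 2 or 3 or stimulated replicate 1 or 3. The median log2 fold change of the list was 0.01 in WT and 0.06 in Nox4 KO. Between the genotypes 0 listed genes passed in control, after TGF-β2 or in the interaction, by edgeR and by DESeq2.

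Genes for the cross-linking of elastin and for latent TGF-β stood among those that rose. The lysyl oxidases join elastin molecules through their lysines, and 4 of 5 rose in WT and 5 of 5 in Nox4 KO, where 10.4% and 15.1% of all genes did. Like the rest of the list they were chosen with earlier results known, so this is not an independent comparison. Lox was at 872, 927 and 839 RPKM in WT control and at 1299.6, 1031 and 1549 RPKM after TGF-β2. Its log2 fold change was 0.60 in WT (edgeR adjusted p = 0.0494) and 0.77 in Nox4 KO (adjusted p = 0.00425). Loxl2 rose by 0.98 and 1.18, Loxl3 by 0.76 and 0.93 and Loxl1 by 0.77 and 0.40, while Loxl4 rose by 0.65 in Nox4 KO and gave 0.34 in WT (adjusted p = 0.112). Of the 4 latent TGF-β binding proteins, Ltbp2 rose by 1.26 in WT and 1.46 in Nox4 KO and Ltbp4, which also takes part in elastin assembly, by 1.18 and 1.03. Ltbp1 and Ltbp3 did not pass in either genotype, except that Ltbp3 passed as lower in Nox4 KO with the block (-0.25, adjusted p = 0.0243). Furin, the protease that trims profibrillin, rose by 0.71 and 0.80.

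Proteases that cut elastin or its neighbours, and integrins that bind the matrix, gave 4 further genes that rose in WT. Mmp9 was at 1.13 to 1.63 RPKM in WT control and at 15.5 to 16.7 RPKM after TGF-β2. Its log2 fold change in WT was 3.57 (edgeR adjusted p = 0.000236), and it rose by 3.82 in Nox4 KO. Mmp14 rose by 0.92 and 1.04. Itga5 rose by 1.44 in both genotypes. Itgb3 passed in WT at 1.54 and not in Nox4 KO (1.87, edgeR adjusted p = 0.114) unless the block was used (1.66, adjusted p = 0.00382), and Itgav and Itgb1 passed in Nox4 KO at 1.12 and 0.40 and not in WT (0.54 and 0.31, adjusted p of 0.110 and 0.163). Of 6 measured ADAMTS and ADAMTS-like genes, which act on or bind microfibrils, Adamts6 rose by 0.86 in WT and 0.87 in Nox4 KO. Adamtsl2 rose by 2.07 in WT and gave 1.19 in Nox4 KO (edgeR adjusted p = 0.117), where it passed at 1.27 with the block (adjusted p = 0.00705). Its mean was low, at 0.401 RPKM in WT control and 0.533 in Nox4 KO control. It met the filter of 1 RPKM only through the stimulated groups, at 1.64 and 1.15 RPKM.

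Listed genes that fell included other fibulins, an emilin and ADAMTS-like genes. Adamtsl4, a fibrillin-binding protein, was at 12.0 to 22.4 RPKM in WT control and at 2.75 to 3.31 RPKM in the stimulated libraries. It fell by 2.31 in WT and by 2.14 in Nox4 KO on the log2 scale (edgeR adjusted p of 0.00162 and 0.0164). Emilin2, a relative of Emilin1, fell by 1.21 and 1.11. Efemp1 and Fbln7, which belong to the fibulin family, fell by 1.01 and 0.73 in WT and gave -1.06 and -0.94 in Nox4 KO, where the edgeR adjusted p was 0.220 and 0.156 without the block and 0.000299 and 0.0034 with it. Adamtsl3 fell by 1.40 in WT and gave -0.42 in Nox4 KO (edgeR adjusted p = 0.196, and 0.00696 with the block). Ctsa, a part of the elastin receptor complex, fell by 0.46 in Nox4 KO and gave -0.29 in WT (adjusted p = 0.141). Dcn, the proteoglycan decorin, fell by 0.39 in Nox4 KO and gave -0.42 in WT (adjusted p = 0.445). None of these differences between the genotypes passed the interaction test.

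**Figure D5:**
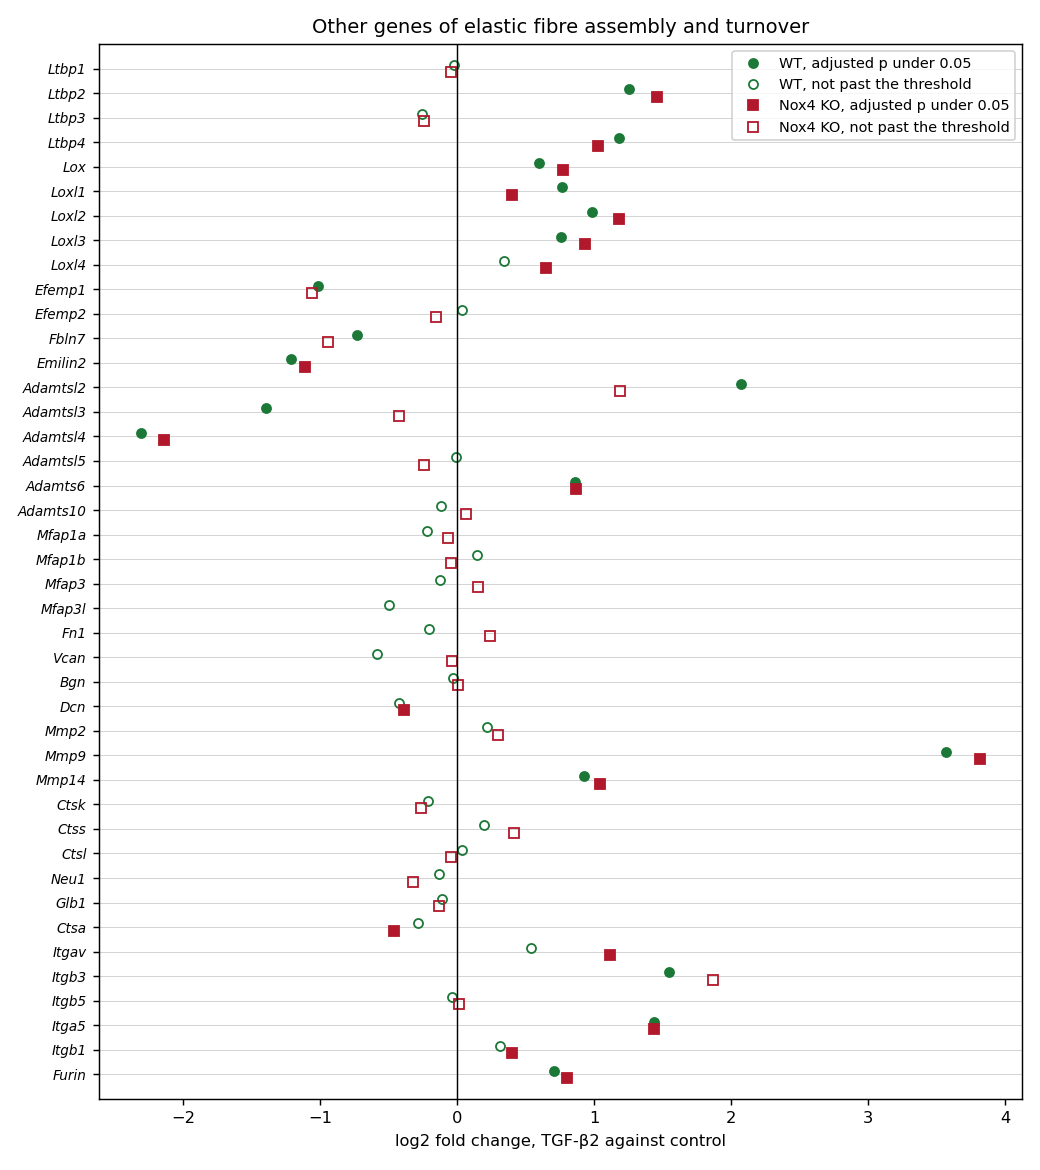
Log2 fold change, TGF-β2 against control, of the 42 listed genes of elastic fibre assembly and turnover tested in WT (circles) and of those tested in Nox4 KO (squares); filled symbols passed at an edgeR adjusted p under 0.05. Mmp9 lies farthest to the right in both genotypes and Adamtsl4 farthest to the left.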

How the data were processed

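Primary skin fibroblasts of WT and Nox4 KO mice were sequenced in 12 libraries (TruSeq RNA kit, single-end reads of 50 nt). Reads were aligned by the authors with STAR 2.4 on GRCm38, keeping those with a single location, and featureCounts 1.4.6 assigned them to gene models that merge the exons of all protein-coding isoforms (versions from the processing notes of the submitters, which also name CASAVA 1.8.2). The deposited values are raw counts per gene, without normalization. Use of the strand is not given in the sources used here.

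RPKM was computed from these counts, the merged exon length of GENCODE models on GRCm38 (all 21556 identifiers matched, 457 with lengths from all transcripts) and the library total. Each pair of groups was fitted on its own 6 libraries with edgeR 4.0.16 (R 4.3.3, TMM, quasi-likelihood test), after genes under 1 RPKM on average in both groups had been left out. P-values were adjusted by Benjamini-Hochberg over all genes kept, and a gene passed under 0.05. The interaction was fitted on 12 libraries. Groups came from the labels. The procedures were tested on simulated data.

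Replicate numbers are shared between groups. Deviations from the group mean correlated over 10890 genes, with r of 0.763, 0.688 and 0.741 for control and stimulated Nox4 KO libraries of equal number, so these pair. The pairing comes from this check and not from the labels. The members, the list of 50 related genes, the markers and the motifs were chosen with earlier results of these data known. Named were all members, listed genes that passed in any comparison, Nox4, Acta2 and Ccn2, and the 5 genes nearest to Eln and to Fbn1, of which some are not reported here. Alternatives were DESeq2 1.42.0, other scalings and filters, a replicate block, 1 fit over all 12 libraries, a 2-fold limit, other gene lengths, and leaving out each library. A block within genotype for the interaction was added after seeing the data.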

Additional observations from a re-analysis of the deposited data

How the results depend on the processing

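No result changed direction under any setting that was run where it had passed the test. In WT the number of listed genes that were higher became 6 with a 2-fold limit, and the number lower became 3 with all 12 libraries in the fit. In Nox4 KO the number of members lower was 0 with a 2-fold limit, 3 with DESeq2, 3 with all 12 libraries and 4 with the replicate block, and listed genes were 7 higher and 2 lower with a 2-fold limit and 12 lower with the block. The 2-fold limit removes genes by its construction, and the cause of the other differences was not tested.

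Leaving out 1 library at a time gave 1 to 2 members higher and 3 lower in WT, with 7 to 14 listed genes higher and 3 to 4 lower. In Nox4 KO it gave 1 to 2 members higher and 0 to 2 lower. In both comparisons of the genotypes and in the interaction 0 members and 0 listed genes passed under each of these settings. Where a group was left with 2 libraries, the remaining spread was pooled.

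Over single members, 88 of 89 values from other settings in WT and 79 of 89 in Nox4 KO stayed on the same side of the threshold, and 57 of 60 and 46 of 60 did when a library was left out. Library-size scaling moved the median of all genes in Nox4 KO to -0.10. With gene lengths from all transcripts the WT control means were 7.36 RPKM for Eln, 812 for Fbln2, 51.3 for Fbln5, 51.9 for Emilin1 and 84.5 for Mfap5.

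In WT, control and stimulated libraries of the same number correlated at 0.0619, 0.415 and 0.525, below the limit for pairing in 1 of 3, and the replicate block gave 2 members higher and 3 lower, as without it. Beyond Fbn2, Mfap2 and Fbln1 in Nox4 KO, the block changed no member call in any comparison, including 0 in the interaction with the block within genotype. In WT every library correlated best with its own number, except control replicate 1, which correlated best with stimulated replicate 2.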

Other observations

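The genes whose pattern over the 12 libraries was nearest to that of Eln, by the root mean square difference of log2(CPM + 0.5) after centring each of 10880 genes, were Endod1 at 0.316, Adgra1 at 0.340, Ust at 0.378, Htr2b at 0.396 and Csdc2 at 0.422. Endod1 was at 3.88 ± 0.435 RPKM in WT control and at 18.3 ± 0.184 RPKM after TGF-β2, and at 4.53 ± 1.34 and 20.8 ± 2.61 RPKM in Nox4 KO (SD, n = 3). Ust, a sulfotransferase of glycosaminoglycans, was at 2.00 ± 0.542 and 7.25 ± 1.03 RPKM in the WT groups. Adgra1 and Htr2b were under 1 RPKM in control, where the added 0.5 weighs on the distance. The nearest member was Mfap4 at 0.650 and the farthest Fbn2 at 2.64.

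Among the genes nearest to Fbn1 were Htt, Hectd4, Trim56 and Arhgef12, at distances of 0.0688 to 0.0763. Their merged exons were 9281 to 15656 bases long, beside 12004 for Fbn1 and a median of 3396 over the genes compared. Arhgef12 was at 13.5 ± 0.795 RPKM in WT control and 11.6 ± 3.73 RPKM after TGF-β2, a spread between stimulated WT libraries that it had in common with Fbn1. The nearest member to Fbn1 was Emilin1 at 0.267.

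Acta2, the actin of contractile fibroblasts, was between 4366 and 7853 RPKM in all libraries and did not pass after TGF-β2 (log2 fold change 0.13 in WT and -0.06 in Nox4 KO, edgeR adjusted p of 0.664 and 0.820). Nox4 rose by 2.83 in WT and by 2.65 in Nox4 KO on the log2 scale (adjusted p of 0.00214 and 0.00575).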
